A study of Mus musculus with 22 samples.

Results

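hnRNP A1 is an RNA-binding protein that takes part in splicing, transport and translation of RNA and is known to favour the motif UAG. CLIPseq crosslinks such a protein to the RNA it touches, recovers the complexes with an antibody and sequences the attached RNA. A footprint here is a stretch of the genome to which the assembled reads of an immunoprecipitation mapped and which was retained after sites of the matched input and of IgG controls had been removed. The genes described are 10 genes of the lysosome and the phagocyte, *Lyz2*, *Cd68*, *Lgals3*, *Gpnmb*, *Spp1*, *Ctsz*, *Ctsb*, *Ctss*, *Ctsd* and *Lamp1*, taken as a fixed list. The list was chosen with earlier results of these data known, so its shares beside those of all genes are descriptions and not tests. Footprints that overlapped the annotated span of one of these genes by at least 1 nt were counted, which gave 139 of the 136207 footprints of the series. All 10 genes had a footprint in some mouse, among 13948 annotated genes that did.

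Lysosomes are acidic organelles in which hydrolases and cathepsins degrade material taken up by the cell. Phagocytes of the central nervous system, resident microglia and macrophages that enter from blood, hold many of them and clear myelin debris with them. Experimental autoimmune encephalomyelitis (EAE) is a model of multiple sclerosis in which immunity against myelin brings such cells into the spinal cord.

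Whole spinal cords of female C57BL/6N mice were used, from 3 naïve mice, 3 mice with mild EAE (clinical scores 1 to 1.5) and 4 mice with severe EAE (scores 2.5 to 3). EAE mice were immunised with a peptide of myelin oligodendrocyte glycoprotein in complete Freund's adjuvant and given pertussis toxin, at 12 weeks of age by the protocol and at 8 weeks by the design text, and were taken 15 days after onset. Mice are named by the number in their labels, mild EAE mice 3, 4 and 7 and severe EAE mice 1, 2, 5 and 6, and these numbers do not link EAE mice to naïve mice. The antibody clone was 9H10 by the labels and 4B10 by the methods. Each mouse was 1 replicate, and the tissue was not sorted, so more cells of a type, more RNA per cell and more binding per RNA cannot be told apart in these values.

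The 3 naïve lists held 17119 to 17494 footprints and the mild EAE lists 9751 to 24433. The severe EAE lists stood apart from each other, with 2670, 209 and 673 footprints in mice 1, 2 and 6 and 31870 in mouse 5. Mouse 5 also had the most mapped unique reads, 10909456. The paper describes it as an outlier of its group, with a binding profile similar to naïve and mild EAE mice, that had been in remission shortly before the end. Its values are thus not typical of the severe EAE mice. The read depth behind a single footprint is unknown. The inputs, whose sites were subtracted, differed in depth too. In the study's read totals, those of mild EAE mouse 3 and severe EAE mouse 5 had the fewest mapped unique reads of all inputs. The input of severe EAE mouse 2 had the most. The effect of input depth on the lists was not tested. Markers of the cord's own cells were present, as 5 to 6 of 6 oligodendrocyte markers and 4 to 5 of 7 neuronal markers had a footprint in every naïve and mild EAE mouse, although the cholinergic marker *Chat* had none in any mouse.

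In each of the 10 genes a coding stretch was covered by footprints of at least 2 EAE mice and of no naïve mouse, and 1 such stretch of each gene is printed because the footprints of different mice met there. Such a stretch was held by 24.8% of the 9999 protein-coding genes with a footprint in any mouse and by 55.4% of the 3655 with one in at least 3 EAE mice, as each of the 10 genes had. Sequences are of GRCm38, in the direction of the transcript, with UAG (TAG in DNA) in capitals. Exons are numbered in the main coding transcript of GENCODE release M21. Each label names the mice with a footprint that met the stretch, and some of these covered only a part of it.
*Lyz2* exon 1, chr10:117282128-117282239, minus strand, mild EAE mice 3 and 4 and severe EAE mice 1 and 5: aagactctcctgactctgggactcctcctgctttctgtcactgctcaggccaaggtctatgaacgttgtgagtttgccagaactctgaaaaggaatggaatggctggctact
*Cd68* exon 2, chr11:69665721-69665883, minus strand, mild EAE mice 3 and 7 and severe EAE mouse 5: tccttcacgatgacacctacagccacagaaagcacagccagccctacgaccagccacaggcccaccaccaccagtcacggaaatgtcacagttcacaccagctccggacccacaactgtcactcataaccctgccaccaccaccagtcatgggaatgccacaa
*Lgals3* exon 4, chr14:47381606-47381672, plus strand, mild EAE mice 3 and 7: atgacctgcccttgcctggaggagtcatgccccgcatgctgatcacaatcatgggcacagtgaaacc
*Gpnmb* exon 8, chr6:49051048-49051126, plus strand, mild EAE mice 3 and 4 and severe EAE mouse 5: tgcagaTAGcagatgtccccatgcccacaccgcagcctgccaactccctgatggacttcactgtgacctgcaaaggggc
*Spp1* exon 4, chr5:104437661-104437735, plus strand, mild EAE mice 3 and 7 and severe EAE mouse 5: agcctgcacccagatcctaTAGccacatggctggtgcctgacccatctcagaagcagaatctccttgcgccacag
*Ctsz* exon 5, chr2:174428578-174428675, minus strand, mild EAE mice 3, 4 and 7 and severe EAE mouse 5: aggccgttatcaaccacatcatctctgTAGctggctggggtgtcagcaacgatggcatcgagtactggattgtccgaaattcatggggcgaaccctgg
*Ctsb* exon 7, chr14:63138351-63138494, plus strand, mild EAE mice 3 and 7 and severe EAE mice 5 and 6: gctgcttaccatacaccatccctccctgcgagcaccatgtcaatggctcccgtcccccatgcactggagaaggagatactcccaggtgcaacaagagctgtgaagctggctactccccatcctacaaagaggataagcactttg
*Ctss* exon 6, chr3:95546893-95546961, plus strand, mild EAE mice 3 and 4 and severe EAE mouse 5: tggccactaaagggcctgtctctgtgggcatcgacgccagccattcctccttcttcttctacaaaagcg
*Ctsd* exon 9, chr7:142376693-142376738, minus strand, mild EAE mice 3 and 4 and severe EAE mouse 1: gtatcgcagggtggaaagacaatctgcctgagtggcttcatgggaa
*Lamp1* exon 5, chr8:13171205-13171364, plus strand, mild EAE mice 3 and 4 and severe EAE mouse 5: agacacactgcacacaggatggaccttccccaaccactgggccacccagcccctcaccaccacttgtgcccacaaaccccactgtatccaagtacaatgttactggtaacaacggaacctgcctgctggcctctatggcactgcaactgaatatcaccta

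The phagocyte lysosome genes were footprinted mainly in mice with EAE. Of the 139 footprints, 15 came from the 3 naïve mice, 74 from the 3 mild EAE mice and 50 from the 4 severe EAE mice, of which 40 were from mouse 5. Naïve mice 1, 2 and 3 had a footprint in 2, 5 and 2 of the 10 genes. Mild EAE mice 3, 4 and 7 had one in 10, 7 and 8, and severe EAE mice 1, 2, 5 and 6 in 5, 0, 10 and 1. Over the whole annotation the same mice had a footprint in 4907, 6473 and 5434 genes (naïve), 5157, 3811 and 7063 (mild EAE) and 1510, 145, 8289 and 549 (severe EAE), where naïve and mild EAE mice overlapped. For the 10 genes the naïve and mild EAE mice did not overlap, with means of 3 ± 1.73 (SD, n = 3) and 8.33 ± 1.53 (SD, n = 3), while the severe EAE mice spanned the whole range (4 ± 4.55, SD, n = 4). *Lyz2*, *Cd68*, *Lgals3*, *Gpnmb* and *Ctsz* had no footprint in any naïve mouse. The same held for 4210 of the 13948 genes with a footprint in any mouse.

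**Figure D1:**
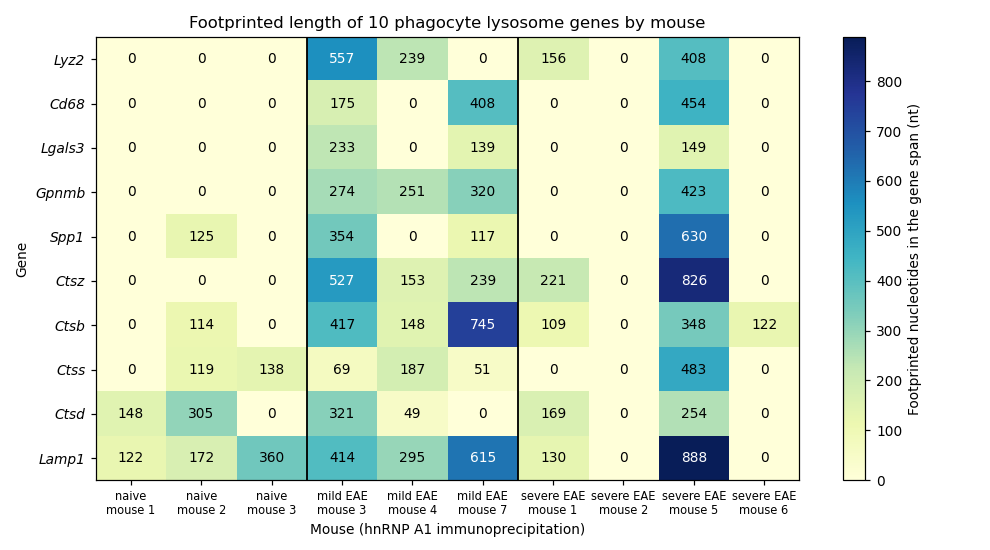
Footprinted nucleotides (nt, colour and number) in the span of each of the 10 genes (rows) for each mouse (columns), with lines between naïve, mild EAE and severe EAE mice. The 5 genes with only zeros in the naïve columns are *Lyz2*, *Cd68*, *Lgals3*, *Gpnmb* and *Ctsz*, and severe EAE mouse 5 is the only severe EAE mouse with a value in every row.

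Because the lists differ in length, the footprints in these genes were also taken as a share of all footprints of the mouse. The share was 0.0175%, 0.0401% and 0.0286% in naïve mice 1, 2 and 3. It was 0.248%, 0.144% and 0.0982% in mild EAE mice 3, 4 and 7, above every naïve mouse. In severe EAE the 9 footprints of mouse 1 made up 0.337% of its short list, the 40 of mouse 5 made up 0.126% and the single one of mouse 6 made up 0.149%. The exact (Clopper-Pearson) 95% interval of mouse 6, 0.00376% to 0.825%, covered the naïve shares, and the interval of mouse 2, with 0 of 209 footprints, reached 1.75%. That of mouse 1 was 0.154% to 0.639%, above the 0.0826% at which the highest interval of a naïve mouse ended. These intervals cover counting error only, and footprints of the same transcript are not independent.

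The naïve lists held a lower share of exonic footprints, which moves such a percentage. Of the footprints in protein-coding genes, 56.9% to 71.5% were exonic in naïve mice and 75.0% to 88.0% in mild EAE mice. Among exonic footprints alone, the 10 genes took 0.0344% to 0.0710% in naïve mice and 0.138% to 0.318% in mild EAE mice, so the order was the same. Per 1000000 mapped unique reads the groups overlapped, since the 835 nt covered in these genes in naïve mouse 2, the library with the fewest reads, corresponded to 356 nt and the values of mild EAE mice 3, 4 and 7 were 592, 232 and 320 nt. The other naïve mice were at 49.1 and 94.3 nt on this scale.

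**Figure D2:**
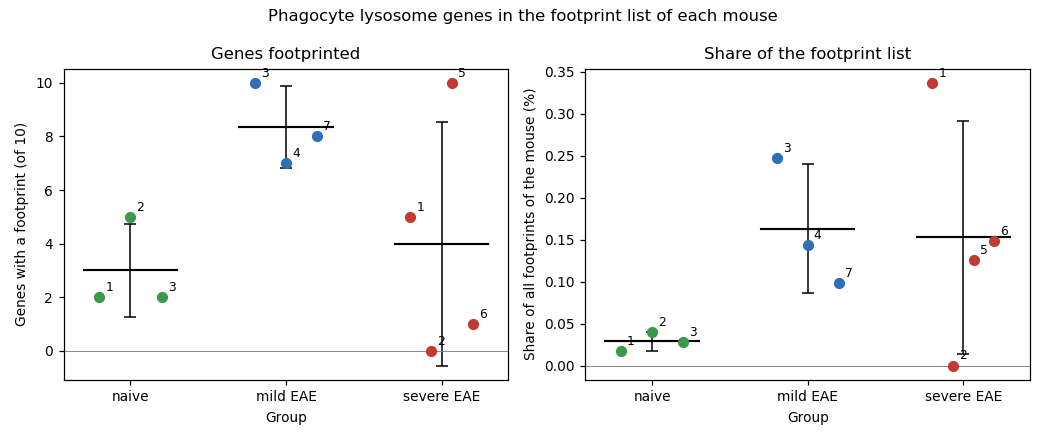
Left, number of the 10 genes with a footprint in each mouse. Right, footprints in these genes as a percentage of all footprints of the mouse. Points are mice, labelled by mouse number, the long line is the group mean and the bars are SD (n = 3, 3 and 4). All mild EAE mice lie above all naïve mice in both plots, and severe EAE mouse 2 lies at 0 in both.

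*Lyz2* (chr10:117277331-117282321), which codes for the lysozyme of macrophages, was covered over 557, 239 and 0 nt in mild EAE mice 3, 4 and 7 and over 156, 0, 408 and 0 nt in severe EAE mice 1, 2, 5 and 6. The 11 footprints lay in exons, 10 of them in coding sequence by their midpoint. Exon 1 carried a footprint in 4 mice, with the same start and end, chr10:117282107-117282262, in mild EAE mouse 3 and severe EAE mouse 1. *Lyz2* has a near-identical neighbour, *Lyz1*, whose span the *Lyz2* footprints matched at 91.0% to 100% identity. The 79 nt of exon 3 covered in mild EAE mice 3 and 4 and severe EAE mouse 5 were identical in both genes, so these footprints cannot be assigned to 1 of them by sequence. *Lyz1* itself held a single footprint of 110 nt, in severe EAE mouse 6, which matched *Lyz2* at 98.2%.

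*Cd68* (chr11:69664213-69666153) codes for a heavily glycosylated lysosomal protein of macrophages and microglia, and *Lgals3* (chr14:47367751-47386160) for galectin-3, a lectin that gathers on damaged lysosomes. *Cd68* was covered over 175, 0 and 408 nt in mild EAE mice 3, 4 and 7 and over 454 nt in severe EAE mouse 5 alone among the severe mice. *Lgals3* was covered over 233, 0 and 139 nt in the same mild EAE mice and over 149 nt in severe EAE mouse 5. Both genes were thus without a footprint in mild EAE mouse 4 and in severe EAE mice 1, 2 and 6. The single *Lgals3* footprint of severe EAE mouse 5 lay in an intron, whereas the 4 of mild EAE lay in exons 3, 4 and 5.

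*Gpnmb* (chr6:49036546-49070929), a transmembrane glycoprotein of the endolysosomes of phagocytes and of melanosomes, was covered over 274, 251 and 320 nt in mild EAE mice 3, 4 and 7 (281.7 ± 35.1, SD, n = 3). Its mild EAE values were the closest to each other of the 10 genes relative to their mean. Severe EAE mouse 5 had 423 nt and the other severe EAE mice 0. The coding stretch of exon 3 was met by the footprints of mild EAE mice 3 and 7 and severe EAE mouse 5, and that of exon 8 printed above by mild EAE mice 3 and 4 and severe EAE mouse 5.

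*Spp1* (chr5:104435118-104441050) codes for osteopontin, a secreted phosphoprotein that binds integrins and CD44 and is not itself a lysosomal enzyme. It was covered over 354, 0 and 117 nt in mild EAE mice 3, 4 and 7 and over 630 nt in severe EAE mouse 5. Naïve mouse 2 had 1 *Spp1* footprint of 125 nt, in exon 7, where no EAE mouse had one that met it. The EAE footprints of exons 4 and 5 ended at the same exon ends in mild EAE mice 3 and 7 and severe EAE mouse 5.

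Among the cathepsins, *Ctsz* (chr2:174427493-174439039), a cysteine carboxypeptidase, was footprinted in the most EAE mice without any naïve footprint. Its covered length was 527, 153 and 239 nt in mild EAE mice 3, 4 and 7 (306.3 ± 195.9, SD, n = 3) and 221, 0, 826 and 0 nt in severe EAE mice 1, 2, 5 and 6. Of the 13948 genes with a footprint in any mouse, 47 had one in at least 5 EAE mice and in no naïve mouse. *Ctsz* was the only one of the 10 among them. Mild EAE mice were covered in exons 3 to 6 and severe EAE mouse 1 in exons 1 and 2 alone, while severe EAE mouse 5 was covered in both parts.

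*Ctsb* (chr14:63122462-63145923), a cysteine protease, was covered over 0, 114 and 0 nt in naïve mice 1, 2 and 3, over 417, 148 and 745 nt in mild EAE mice 3, 4 and 7 and over 109, 0, 348 and 122 nt in severe EAE mice 1, 2, 5 and 6. The mild EAE mice did not overlap the naïve mice, although the lowest of them was above naïve mouse 2 by 34 nt only. The naïve footprint lay in exon 2, outside every EAE footprint. In EAE, exons 6, 7 and 8 were met by 4 mice each, and the only footprint of severe EAE mouse 6 in the 10 genes was in exon 7.

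*Ctss* (chr3:95526786-95556403), a cysteine protease that trims the invariant chain for antigen presentation, had nearly equal covered lengths in the groups when its whole span was taken. These were 0, 119 and 138 nt in naïve mice 1, 2 and 3, 69, 187 and 51 nt in mild EAE mice 3, 4 and 7, and 483 nt in severe EAE mouse 5 with 0 in the other 3. Both naïve footprints, 1 of mild EAE mouse 4 and 1 of severe EAE mouse 5 lay in an intron on *Hmgb1-ps5*, a processed pseudogene on the same strand. In exons, *Ctss* was covered over 0 nt in all 3 naïve mice and over 69, 76 and 51 nt in the mild EAE mice, always in exon 6, and over 122 nt of the same exon in severe EAE mouse 5. A pseudogene resembles its parent gene, so the assignment of the intronic footprints to this locus is uncertain.

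*Ctsd* (chr7:142375911-142388038), the aspartic protease of lysosomes, and *Lamp1* (chr8:13159161-13175338), a major glycoprotein of the lysosomal membrane, were footprinted in naïve mice too. *Ctsd* was covered over 148, 305 and 0 nt in naïve mice 1, 2 and 3, over 321, 49 and 0 nt in mild EAE mice 3, 4 and 7 and over 169, 0, 254 and 0 nt in severe EAE mice 1, 2, 5 and 6, so the groups overlapped fully. The positions differed in part. Exon 3 was footprinted in naïve mice 1 and 2 and in no EAE mouse, and exon 9 in mild EAE mice 3 and 4 and severe EAE mouse 1 and in no naïve mouse. Of the 14 *Ctsd* footprints, 7 also lay in *Gm49369*, an overlapping gene on the same strand, 6 of the 9 from EAE mice and 1 of the 5 from naïve mice. They include every exon 9 footprint, so the assignment of the exon 9 stretch printed above to *Ctsd* is uncertain.

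*Lamp1* was covered over 122, 172 and 360 nt in naïve mice 1, 2 and 3 (218.0 ± 125.5, SD, n = 3), over 414, 295 and 615 nt in mild EAE mice 3, 4 and 7 (441.3 ± 161.7, SD, n = 3) and over 130, 0, 888 and 0 nt in severe EAE mice 1, 2, 5 and 6. All 6 naïve footprints lay where *Lamp1* overlaps *Grtp1*, a gene on the opposite strand, as did 7 of the 22 EAE footprints. Since the footprints carry no strand, these cannot be assigned to 1 of both genes. Exons 2 to 5 lie outside *Grtp1*, and at least 1 of them was footprinted in each mild EAE mouse and in mice 1 and 5 of severe EAE, but in no naïve mouse. The stretch shared by naïve mice 1 and 3 was in exon 6 and no EAE mouse had a footprint there. It is printed for comparison with the exon 5 stretch of EAE, chr8:13172542-13172660: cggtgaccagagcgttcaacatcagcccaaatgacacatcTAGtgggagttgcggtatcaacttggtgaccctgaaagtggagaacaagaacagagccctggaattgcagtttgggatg

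**Figure D3:**
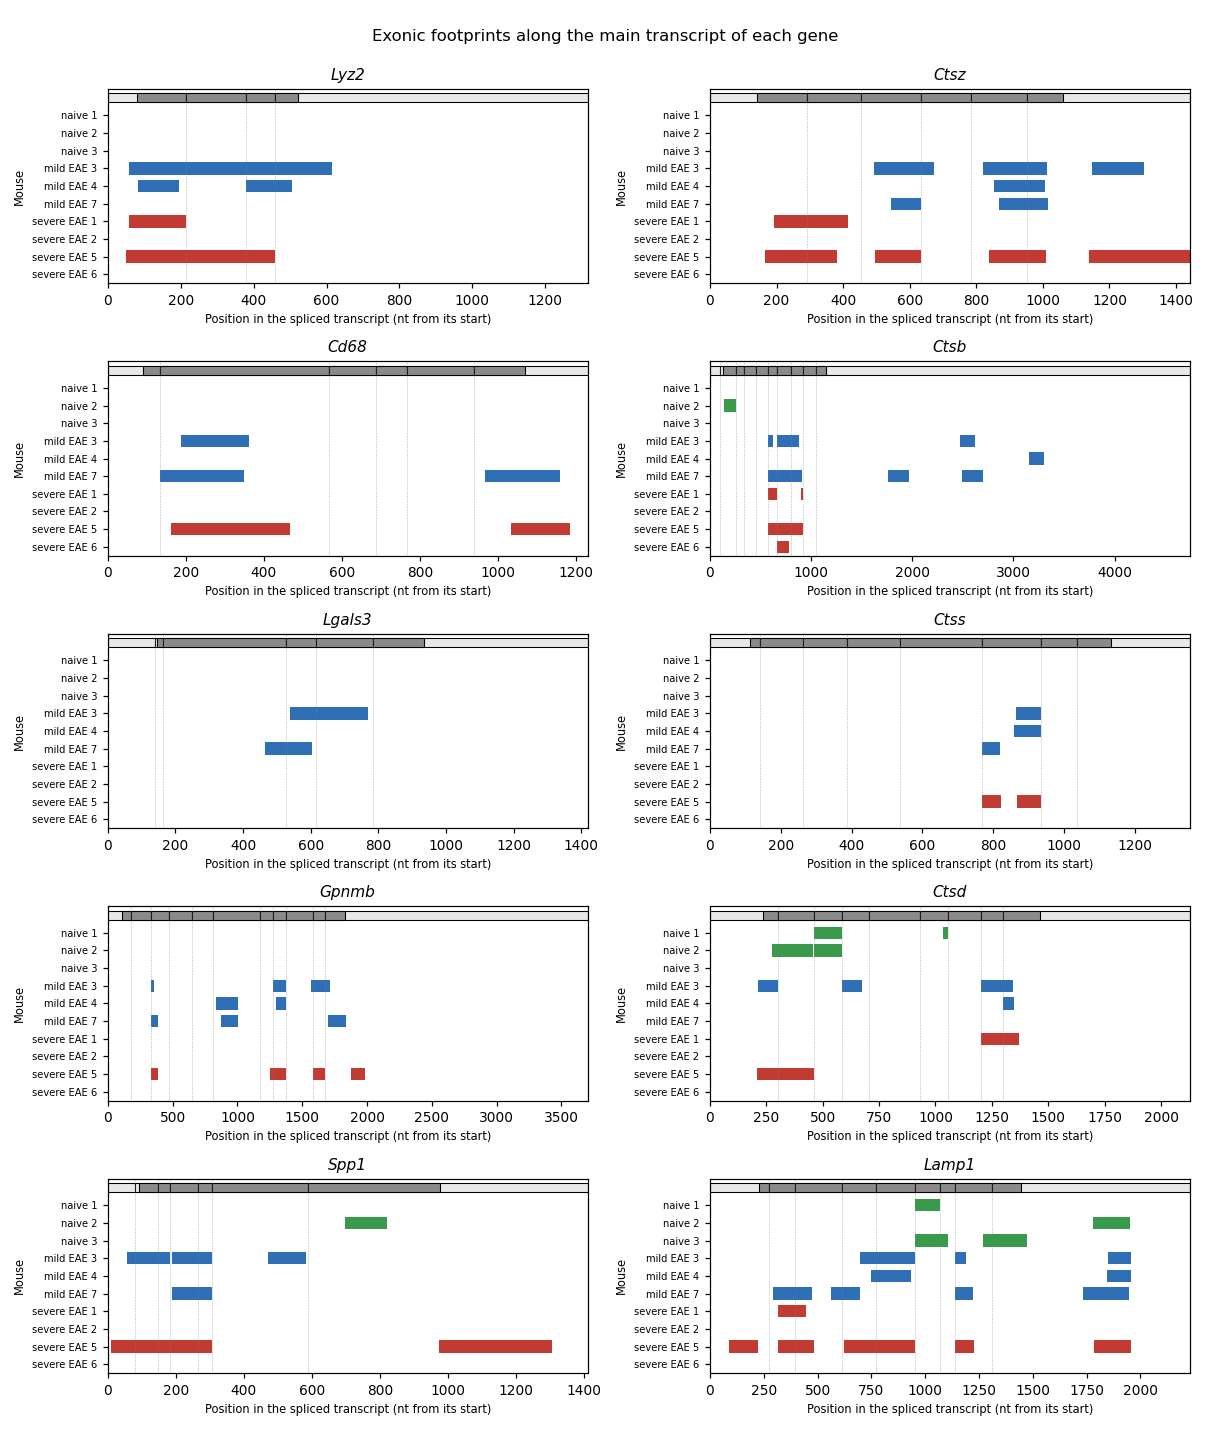
Exonic footprints along the spliced main transcript of each gene (x axis, nt from its start), 1 row per mouse, in green for naïve, blue for mild EAE and red for severe EAE mice. The bar on top shows exons, with coding sequence in dark grey, UTR in light grey and exon borders as dotted lines, and intronic footprints are not drawn. The green naïve footprints of *Ctsb*, *Spp1* and exon 6 of *Lamp1* lie apart from the blue and red ones, which stack on the same coding exons in several mice.

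To ask whether mild EAE differed from naïve mice, the covered length of every gene was compared between both groups. In *Ctsb*, *Ctsz* and *Gpnmb*, 3 of the 10 genes, every mild EAE mouse was above every naïve mouse, and none of the 10 was lower in every mild EAE mouse. Across all 12528 genes with a footprint in these 6 mice, 353 were higher in this way (2.82%) and 354 lower (2.83%). *Ctsz* and *Gpnmb* had a footprint in all 3 mild EAE mice and in no naïve mouse, as had 146 genes (1.17%). The mean was higher in mild EAE for 9 of the 10 genes, *Ctsd* excepted, and for 48.9% of all genes, and the median difference was 208.8 nt over the 10 genes and −2.33 nt over all genes.

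By the two-sided exact permutation test, *Ctsb* (398.7 nt higher), *Ctsz* (306.3 nt) and *Gpnmb* (281.7 nt) reached p = 0.1, the smallest that 3 mice against 3 allow, with an adjusted p of 1 (Benjamini-Hochberg over 12528 genes). No gene could pass this test. The count of 3 became 6 without mild EAE mouse 4, whose list was the shortest of that group and where 10.6% of all genes were then higher, and 5 (*Lamp1* and *Ctss* added) with footprints that overlapped no other gene, where 2.67% of 9445 genes were higher. That setting takes away every naïve footprint of *Lamp1* and *Ctss*, so their naïve values are 0 by construction.

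Over all 7 EAE mice against the 3 naïve mice, the mean covered length was again higher in EAE for every one of the 10 genes except *Ctsd*. *Ctsz* differed by 280.9 nt (exact permutation p = 0.175, adjusted p = 0.956), *Ctsb* by 231.9 nt (exact p = 0.183) and *Lyz2* by 194.3 nt (exact p = 0.242), and none of the 10 reached 0.05 before adjustment. Of 13948 genes tested, 437 did, and 1 of these was higher in EAE (0.00717%), so this comparison, which holds 3 short lists, called nearly only genes that were lower.

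Severe EAE alone against naïve mice gave 1 gene higher at this level among 12354 (0.00809%) and none of the 10. The differences of the 10 genes ranged from −45.3 nt in *Ctsd* to 261.8 nt in *Ctsz*, with exact permutation p from 0.286 to 1. Without severe EAE mouse 5, *Lamp1*, *Ctss* and *Spp1* were lower in severe EAE than in naïve mice, by differences of −174.7, −85.7 and −41.7 nt, so the direction of these genes in severe EAE was set by mouse 5. The difference of *Ctsz* was then 73.7 nt, of *Lyz2* 52 nt, of *Ctsb* 39 nt and of *Ctsd* −94.7 nt, and *Lgals3*, *Cd68* and *Gpnmb* had no footprint left in either group. No gene passed adjustment in any of the 3 comparisons. Between severe and mild EAE, the mean was higher in severe EAE for 2 of the 10 genes and for 32.9% of all genes. For the 10 genes the exact permutation p ran from 0.143 to 1. So few mice, with mouse 5 far from the others, cannot show that both groups are alike.

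Stretches of more than 1 nt that were covered in at least 2 mice of a group were counted next. The 10 genes held 3 such stretches in naïve mice, 25 in mild EAE, with at least 1 in each gene, and 8 in severe EAE, in *Ctsb*, *Ctsz*, *Lamp1* and *Lyz2*. The 25 fell to 4 without mild EAE mouse 3, to 11 without mouse 7 and to 16 without mouse 4. Of the 25, 24 (96%) were met by no naïve footprint, against 41.3% of 8711 such stretches in all coding genes. A footprint of severe EAE met 20 (80%), 19 of them from mouse 5, against 66.6% in all coding genes. All 8 severe EAE stretches involved mouse 5. With mild and severe EAE pooled, 39 stretches were shared by at least 2 mice, of which 36 (92.3%) were met by no naïve footprint, against 48.9% of 17400 in all coding genes. The number was 29 without severe EAE mouse 5. The exceptions were exon 1 of *Ctsd*, the pseudogene in *Ctss* and the 3′ UTR of *Lamp1*, where 5 mice met, the most at any position of the 10 genes.

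The footprints of these genes lay almost wholly in annotated exons. By their midpoint 114 of 139 were in coding sequence, 15 in a 3′ UTR, 3 in a 5′ UTR and 7 in an intron. The exonic share was 94.96% (132 of 139, exact 95% interval 89.9% to 98.0%). It was 73.7% of 117994 footprints in all protein-coding genes, or 79.2% when each mouse is weighted by its footprints in the 10 genes. The interval covers counting error only, as footprints of the same transcript are not independent. Severe EAE mouse 5 gave 40 of the 139. In naïve mice 13 of 15 were exonic, in mild EAE 73 of 74 and in severe EAE 46 of 50. Of the 7 intronic footprints 5 were in *Ctss*. The 10 genes span 1941 to 34384 nt, and the comparison with all coding genes was not matched for gene length.

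Footprints often ended where an exon ended. Of the 132 exonic footprints, 106 (80.3%) had an end exactly at a splice site of the main transcript and 24 (18.2%) had both, against 74.2% and 13.7% of 78804 exonic footprints in other coding genes. Mild EAE gave 73 of the 132, with shares of 78.1% and 13.7%, against 78.4% and 14.8% in other coding genes, so without excess. Severe EAE gave 46, with 84.8% and 30.4% against 72.5% and 15.2%, and 36 of these 46 were from mouse 5. Naïve mice gave 13, with 76.9% and 0% against 70.4% and 11.1%. In 43 cases, a footprint of a mouse ended at the last base of an exon and another of the same mouse began at the first base of the next, in 8 of the 10 genes and 7 of the 10 mice, 3 of the cases in naïve mice. In severe EAE mouse 5, 4 such joins linked exons 1 to 5 of *Spp1*. The same start and end in another mouse was found for 24 of the 132 (18.2%), against 10.4% in other coding genes, and 18 of the 24 ran from one splice site to the next. The lengths of the 139 footprints ran from 16 to 334 nt with a median of 94 nt, and 8 were shorter than 30 nt.

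The motif UAG was searched as TAG on the strand of the transcript. Exonic footprints of the 10 genes held 4.51 TAG per 1000 nt, the whole mature mRNAs of the same genes 8.30, exonic footprints of other coding genes 6.28 and intronic footprints of other coding genes 22.8. Of the 139 footprints of the 10 genes, 114 lay in coding sequence, where TAG in frame is a stop codon. Whole mRNAs include the UTRs as well, so their density is not that of a like part of the transcript. At lengths from 60 to 180 nt, 33 of 94 exonic footprints of these genes held a TAG (35.1%), and 44.4% of 52682 in other coding genes did. By group the share was 32% in mild EAE and 28.6% in severe EAE but 77.8% in naïve mice, on 9 footprints, against 43.5%, 46.1% and 44.1% in other coding genes. AGGU, searched as AGGT on the same strand, occurred at 2.40 per 1000 nt in the exonic footprints of the 10 genes. It occurred at 3.48 in their mRNAs and 3.25 in exonic footprints of other genes. Split by group, the 10 genes had 4.46 in naïve mice, on 6 matches in 13 footprints, 2.09 in mild EAE and 2.29 in severe EAE. At lengths from 60 to 180 nt these were 1.64, 2.59 and 2.03, so the naïve value was then the lowest. Both motifs share the letters AG but their matches cannot overlap by more than 2 letters. These are descriptions of letters in merged footprints, whose ends do not mark the crosslinked base.

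Other genes of the lysosome were taken from 9 lists, 93 genes in all, also chosen with earlier results of these data known. A footprint was found in 18, 36 and 27 of the 93 in naïve mice 1, 2 and 3. The numbers were 37, 24 and 59 for mild EAE mice 3, 4 and 7 and 13, 1, 60 and 11 for severe EAE mice 1, 2, 5 and 6, so naïve and mild EAE mice overlapped. Of 69 genes footprinted in naïve or mild EAE mice, 8 were higher in every mild EAE mouse than in every naïve mouse (11.6%) and 0 lower, against 2.82% and 2.83% of all genes. None passed adjustment of the exact permutation test.

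Among proteases, *Lgmn*, the asparagine endopeptidase that activates cathepsins, had the most covered nucleotides and was higher in every mild EAE mouse, with 126, 116 and 152 nt in naïve mice and 750, 300 and 686 nt in mild EAE mice 3, 4 and 7. Severe EAE mouse 1 had 607 and mouse 5 had 1388 nt. *Ctsa*, a carboxypeptidase that protects other lysosomal enzymes, had 0, 412 and 156 nt in naïve mice and 596, 214 and 824 nt in mild EAE, which overlapped. *Cpq*, a dipeptidase, had 0, 582 and 323 nt in naïve mice and 0, 0 and 646 nt in mild EAE.

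The cystatins, inhibitors of cathepsins, were footprinted in few mice. *Cst3* had 126 nt in naïve mouse 2, 296 nt in mild EAE mouse 3 and 212 nt in severe EAE mouse 5, and *Cst7* had 163, 143 and 129 nt in mild EAE mouse 7 and severe EAE mice 5 and 6. Among hydrolases the most was found in *Gaa*, acid alpha-glucosidase, with 412, 103 and 132 nt in naïve mice and 541, 409 and 779 nt in mild EAE. *Dnase2a*, which digests DNA, had 320, 246 and 627 nt in naïve mice against 172, 0 and 299 nt in mild EAE. Both genes overlapped between the groups.

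All 4 activators of lipid breakdown and their kin had a footprint in mild EAE mice 3 and 7 and in severe EAE mouse 5. *Grn*, progranulin, had 0, 127 and 0 nt in naïve mice and 537, 309 and 815 nt in mild EAE mice 3, 4 and 7, without overlap. *Psap*, prosaposin, had 145, 147 and 542 nt against 934, 253 and 117 nt, and *Gm2a* 0, 0 and 162 nt against 197, 0 and 607 nt, both with overlap. In the membrane list, *Scarb2* had 135, 137 and 172 nt against 251, 128 and 753 nt, *Laptm4b* 244, 156 and 272 nt against 113, 0 and 408 nt, and *Clcn7* 0, 308 and 0 nt against 290, 137 and 168 nt.

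The proton pump, sorting and surface partners of the list did not separate the groups by their leading genes. The pump subunit *Atp6v0a1* had 288, 270 and 406 nt in naïve mice and 149, 0 and 580 nt in mild EAE. *Atp6v1a* had 150, 151 and 186 nt against 0, 0 and 233 nt, and *Atp6v1b2* 140, 0 and 0 nt against 0, 0 and 516 nt. In severe EAE mouse 5 they had 1091 and 1145 nt. *Tcirg1*, a further gene of the pump list, had 0, 118 and 0 nt against 652, 147 and 431 nt, without overlap. It was singled out after its values were seen. The sorting receptor *Sort1* had 0, 316 and 422 nt against 148, 0 and 910 nt, *Gnptab* 309, 0 and 277 nt against 152, 104 and 145 nt, and *Rab7* 221, 0 and 149 nt against 130, 284 and 147 nt. The integrins *Itgb5*, *Itgav* and *Itgb1*, receptors of osteopontin, had 1, 1 and 0 naïve mice and 3, 1 and 2 mild EAE mice with a footprint. *Lgals3bp*, *Lgals8* and *Lgals9*, the other galectin entries, summed to 568, 428 and 267 nt over all 10 mice.

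**Figure D4:**
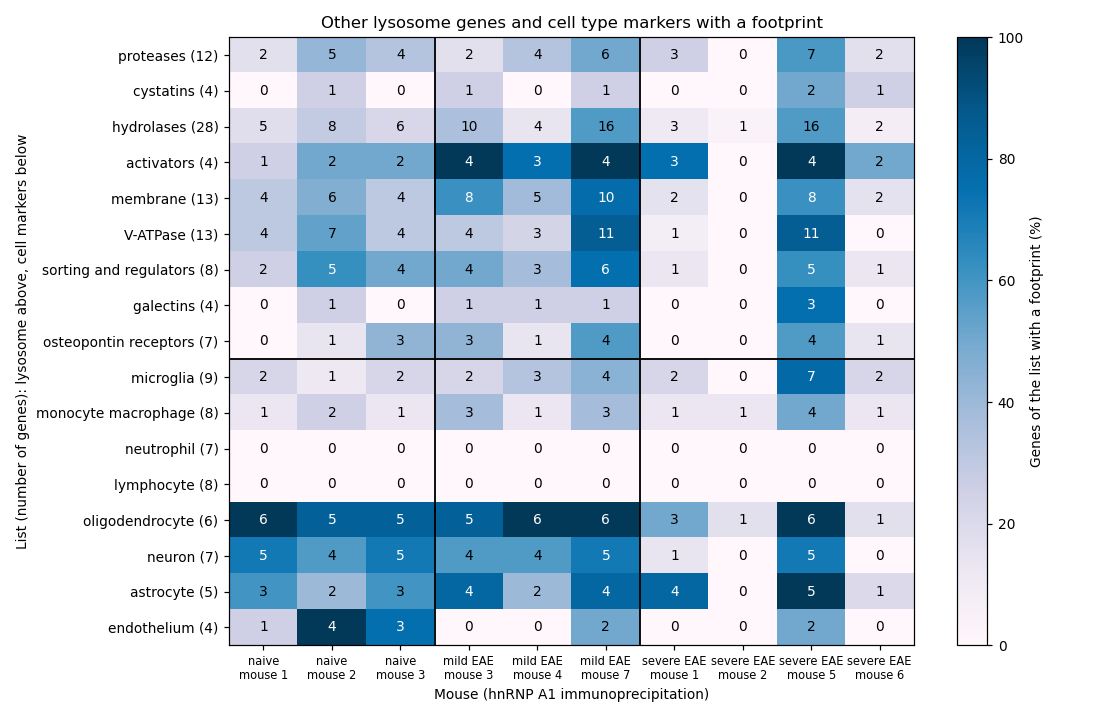
Number of genes with a footprint (number in each cell, colour as a percentage of the list) for 9 lists of other lysosome genes and 8 lists of cell type markers (rows, list size in brackets) in each mouse (columns). The activators list is complete in mild EAE mice 3 and 7 and severe EAE mouse 5, and the neutrophil and lymphocyte rows are 0 in all 10 mice.

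Markers of phagocytes moved with these genes in part. Of 9 microglial markers, 2, 1 and 2 had a footprint in naïve mice, 2, 3 and 4 in mild EAE and 2, 0, 7 and 2 in severe EAE mice 1, 2, 5 and 6. *Csf1r*, the receptor for colony-stimulating factor of all mononuclear phagocytes, had 0 nt in the 3 naïve mice, 761, 76 and 1119 nt in mild EAE mice 3, 4 and 7 and 102, 0, 1504 and 48 nt in severe EAE. *Cx3cr1*, a chemokine receptor of resting microglia, had 172, 261 and 309 nt in naïve mice and 0, 120 and 173 nt in mild EAE, and *P2ry12* 151, 0 and 143 nt against 0, 137 and 0 nt. *Trem2* was footprinted in mild EAE mouse 7 and severe EAE mouse 5 and *Tyrobp* in 2 mild and 3 severe EAE mice, neither in a naïve mouse. *Tmem119* and *Sall1* were footprinted in severe EAE mouse 5 alone, and *Aif1* and *Siglech* in no mouse.

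Of 8 monocyte and macrophage markers, 1 to 2 had a footprint in naïve mice and 1 to 3 in mild EAE mice. *Fn1*, fibronectin, had 0, 815 and 813 nt in naïve mice and 1613, 1125 and 3150 nt in mild EAE, without overlap, and was the only gene of this list footprinted in all 4 severe EAE mice. *Itgam* had 200 and 330 nt in mild EAE mice 3 and 7, 751 nt in severe EAE mouse 5 and none in naïve mice. *Arg1* and *Ms4a7* were each footprinted in 1 EAE mouse, *Adgre1* in 3 mice of which 1 was naïve, *Ly6c2* in naïve mouse 2 alone, and *Ccr2* and *Chil3* in none. All 7 neutrophil and all 8 lymphocyte markers were without a footprint in all 10 mice. The part of these cell types in the values of the 10 genes was not tested.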

How the data were processed

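hnRNP A1 immunoprecipitations of 10 spinal cords were used. Per the labels and the paper's methods, the authors trimmed reads (bcl2fastq 2.19.0.316, fastp), assembled them with rnaSPAdes, aligned the contigs to GRCm38 (minimap2 2.17, spliced), subtracted sites of the matched input and of pooled IgG with bedtools, and merged overlapping sites without strand. The deposited positions carry no score, strand or count, so a gene without a footprint is one where none was retained, and sites abundant in the input were removed. Inputs, IgG pools and peak calls were not analysed here.

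Footprints were intersected with GENCODE M21 gene spans (bedtools 2.31.1, Python 3.11.15, numpy 2.4.6, scipy 1.17.1, matplotlib 3.10.9). Of 136207 footprints, 135636 lay on chromosomes 1 to 19, X and Y and 0 passed a chromosome end. The value of a gene in a mouse was its covered nucleotides. Group means were compared for all genes by two-sided exact permutation tests with Benjamini-Hochberg adjustment, where 3 mice against 3, 4 and 7 cannot go below p = 0.1, 0.0286 and 0.00833. A p-value is the share of all splits of these mice whose absolute difference of means was at least the observed one. The class of a footprint was that of its midpoint. Functions were tested on simulated data. Read totals came from the study's table.

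The 10 genes and the other lists were chosen with earlier results of these data known. Named were the 10 genes, the 3 genes of each lysosome list with the most covered nucleotides over all mice, the microglial and macrophage markers and *Lyz1*. Some genes that these rules name are not reported here. Alternatives were other units, scalings, footprint lengths and gene spans, a block for the replicate number, and leaving out each mouse in turn. Shared stretches within a group followed the criterion of the paper's methods. Those of mild and severe EAE pooled needed at least 2 of 7 mice, which is a looser rule across both groups. Leaving out severe EAE mouse 5 from the stretches of all EAE mice, and footprints that overlap another gene, were added after seeing the data.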

Additional observations from a re-analysis of the deposited data

Results flagged for a closer look

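In severe EAE, 1 mouse lay far from the other 3 in 7 of the 11 values examined (Dixon's criterion at 95%). It was mouse 5 each time, the mouse with the longest list. Its covered length was 483 nt in *Ctss*, 149 nt in *Lgals3*, 454 nt in *Cd68*, 423 nt in *Gpnmb* and 630 nt in *Spp1*, where severe EAE mice 1, 2 and 6 were at 0. In *Lamp1* it was 888 nt, where mouse 1 had 130 nt and mice 2 and 6 had 0. Over all 10 genes it was 4863 nt, against 785, 0 and 122 nt in mice 1, 2 and 6. A gene covered in 1 of these mice and at 0 in the other 3 always meets the criterion, so such flags are no test. The 11 values come from the same lists, and 1 of them is the total of the 10 genes, so they are not independent.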

How the results depend on the processing

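No gene passed adjustment under any alternative, and in the fit with the replicate number as a block (3 pairs for all EAE, 2 for severe EAE), 0 genes passed either, where the smallest p possible was 0.25 and 0.5, so none could. Mild EAE shares only 1 number with the naïve mice, so no paired analysis was possible there. The count of the 10 genes higher in every mild EAE mouse than in every naïve mouse was 3, ran from 2 to 4 over the other units, scalings, lengths and spans (1.68% to 4.36% of all genes), from 3 to 6 with each mouse left out (4.15% to 10.6%), and was 5 with footprints that overlap no other gene (2.67%). *Ctsb* was the gene lost by number of footprints and per 1000000 reads. Shared stretches fell from 3, 25 and 8 in naïve, mild and severe EAE mice to 0, 3 and 0 when at least 3 mice were required. With each mouse left out they were 1 to 1 in naïve mice, 4 to 16 in mild EAE (4 without mouse 3, 11 without mouse 7) and 0 to 8 in severe EAE (1 without mouse 1, 0 without mouse 5). The exonic share stayed between 93.2% and 97.0%.

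The sign of the difference turned in *Ctsd*, *Ctss*, *Lamp1* and *Spp1*, and the cause was not tested. In mild EAE against naïve mice *Ctsd* became 11.5 per 1000000 covered nucleotides and ranged from −126.5 to 49.3 nt with each mouse left out, above 0 without naïve mouse 2 (49.3 nt), mild EAE mouse 4 (9.5 nt) or mild EAE mouse 7 (34 nt). *Ctss* became −8.57 per 1000000 reads and ranged from −26.2 to 42.8 nt, below 0 without naïve mouse 1 (−26.2 nt) or mild EAE mouse 4 (−25.7 nt). Over all EAE mice *Ctsd* became 45.9 per 1000000 covered nucleotides and ranged from −113.2 to 39.3 nt, above 0 without naïve mouse 2. *Ctss* became −12.0 per 1000000 reads and ranged from −34.5 to 53.4 nt, below 0 without naïve mouse 1 (−15.6 nt) or severe EAE mouse 5, and *Lamp1* became −11.0 per 1000000 reads. In severe EAE *Ctsd* became 71.6 per 1000000 covered nucleotides and ranged from −120.8 to 31.8 nt, above 0 without naïve mouse 2. *Ctss* became −11.2 per 1000000 covered nucleotides and −14.6 per 1000000 reads and ranged from −85.7 to 75.3 nt, below 0 without naïve mouse 1 (−7.75 nt) or severe EAE mouse 5. *Spp1* became −3.33 per 1000000 reads and ranged from −41.7 to 168.3 nt, and *Lamp1* became −28.2 per 1000000 reads and ranged from −174.7 to 121.3 nt, both lowest without severe EAE mouse 5, and *Lamp1* was −11.5 nt without naïve mouse 1.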

Other observations

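The genes of the lysosome lists that were higher in every mild EAE mouse than in every naïve mouse included *Lgmn*, *Neu1*, *Grn*, *Npc2*, *Laptm5*, *Laptm4a* and *Tcirg1*. Those not described in the report were singled out after their values were seen. *Npc2*, a cholesterol carrier of the lysosome, had 219, 368 and 167 nt in mild EAE mice 3, 4 and 7 and 194, 0, 510 and 157 nt in severe EAE mice 1, 2, 5 and 6, with 0 in the 3 naïve mice. *Laptm5*, a lysosomal membrane protein of blood cells, had 131, 158 and 202 nt in mild EAE, 448 nt in severe EAE mouse 5 and 0 in all other mice.

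Endothelial markers ran the other way in part. Of 4 such genes, 1, 4 and 3 had a footprint in naïve mice 1, 2 and 3. For mild EAE mice 3, 4 and 7 the numbers were 0, 0 and 2. *Flt1* had 38, 2160 and 1973 nt in naïve mice and 0, 0 and 1056 nt in mild EAE, which overlapped.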
